A study of Mus musculus with 17 samples.

Results

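The genes described here encode the adhesion and tight junction proteins of epithelial cells: the cadherins Cdh1 and Cdh2, the adhesion molecule Epcam, the claudins Cldn3, Cldn4, Cldn6 and Cldn7, occludin (Ocln) and the scaffold protein Tjp1. They are 9 of the 23891 gene symbols in a set of RNA-seq tables from 17 mouse cell samples. Each gene was read from its RefSeq transcript with the highest mean level over the 17 samples. Cldn6 and Cldn7 were chosen by their measured increase from spermatogonial stem cells (SSCs) to MASCs, the multipotent adult stem cells derived from them. For this reason the MASC against SSC difference of every member is given as a description, with no test.

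SSCs are the germline stem cells of the adult testis, and MASCs (multipotent adult spermatogonial-derived stem cells) are cells with features of embryonic stem cells that arose in long-term SSC cultures and were picked as colonies. The 4 SSC lines came from mice labelled Oct4-GFP (lines 1 and 2), C57Bl/6J (line 3) and 129mix (line 4). The 6 MASC lines were Oct4-GFP (lines 1 and 2), 129mix (lines 3 and 4) and Gt(ROSA26)Sor-lacZ (lines 5 and 6). Embryonic stem cells (ESCs) were represented by an Oct4-GFP line and a 129mix line. The 2 induced pluripotent stem (iPS) lines, both 129mix, were colonies picked after mouse embryonic fibroblasts (MEFs) of stage E13.5 carrying tetO-4F2A and H3.3B-HA were given doxycycline at 2 µg/ml. The MEF sample, also 129mix and of stage E13.5, came from H3.3B-HA mice and had no replicate. Both haematopoietic stem cell (HSC) cultures were grown from lineage-depleted C57Bl/6J marrow on human endothelial cells expressing E4ORF1, with Kit ligand. MEF feeder cells carried the cultures of SSC, MASC, ESC and iPS lines. SSCs were moved to gelatin to deplete the feeders, and ESC, MASC and iPS lines were used within 20 passages. The C57Bl/6J strain was present among SSC lines but not among MASC lines, and Gt(ROSA26)Sor-lacZ among MASC lines but not among SSC lines, so strain and cell type were only partly separable.

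E-cadherin, the product of Cdh1, holds neighbouring epithelial cells together through calcium-dependent binding, and its cytoplasmic tail is tied to actin by the catenins. N-cadherin, encoded by Cdh2, has the same architecture and is typical of neural and mesenchymal cells. Tight junctions lie apical to the cadherin junctions: claudins and occludin span the membrane there, and Tjp1 (ZO-1) links them to the cytoskeleton. Mouse embryonic stem cells grow as compact colonies that depend on E-cadherin, and in the testis tight junctions are best known from the Sertoli cells of the blood-testis barrier.

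Levels are FPKM as deposited, which are fragment estimates corrected for transcript length and library size. Between 13532 and 16272 transcripts per sample reached an FPKM of 1. An FPKM of 1 stood for a read coverage of 1.26 to 3.23 reads per base in the different samples, and read totals were not given in the files. Libraries differed in the level of fibroblast genes. Their sum is called fibroblast RNA below, and which cells it came from was not tested. The summed FPKM of 12 fibroblast genes ranged from 46.0 to 1037 in SSC, from 32.6 to 1169 in MASC, from 89.5 to 451 in ESC, from 7.25 to 42.6 in iPS and from 219 to 1137 in HSC samples, against 7090 in the MEF sample. S100a4, which blood cells also express, made up 211 of the 219 and 759 of the 1137 FPKM in HSC samples. In HSC culture 1, 3 of the 12 genes reached an FPKM of 1. In SSC line 2, Col5a1 made up 27.1, S100a4 7.27 and Thy1 6.28 of the 46.0 FPKM, with Col1a2 at 1.37. Among SSC, MASC, ESC and iPS lines the fibroblast sum was highest in MASC line 1 (1169), SSC line 3 (1037), SSC line 1 (481) and ESC line 1 (451). All 12 fibroblast genes reached an FPKM of 1 in each of these 4 libraries. They also did so in SSC line 4 (sum 158) and MASC line 2 (sum 150), so this count does not set the 4 apart. Summed spermatogonial markers were 702 to 913 FPKM in SSC lines and at most 171 elsewhere. Among them Etv5 differed from this sum, at 81.1 to 128 FPKM in MASC and 11.4 to 123 FPKM in SSC lines. In MASC line 5 it made up 126 of the 171 FPKM. Summed pluripotency markers were 3441 to 6714 FPKM in MASC, ESC and iPS lines. They were 28.3 to 171 FPKM in SSC lines, with the 171 in SSC line 1. The MEF sample held blood markers at 80.9 FPKM in sum, and abundant fibroblast transcripts can be listed at 0 in it, so its zeros are given as listed. In these bulk samples, fewer cells of a type and less RNA per cell cannot be told apart.

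Cdh1 separated the MASC, ESC and iPS lines from all other samples. Its transcript NM_009864 lies on chromosome 8, 109127268 to 109194146 of the mm9 build, on the plus strand. The 4 SSC lines had 2.34, 7.08, 0.642 and 4.29 FPKM, in the order of their line numbers. In the 6 MASC lines Cdh1 ranged from 101 to 141 FPKM with a median of 117. The ESC lines had 105 and 104 FPKM and the iPS lines 102 and 131 FPKM. The HSC cultures had 0.552 and 2.30 FPKM, and the MEF sample 1.11 FPKM. The lowest MASC, ESC or iPS line was thus far above the highest of the other samples, and these 3 groups overlapped with each other. Mean Cdh1 was 118 ± 12.8 FPKM (SD, n = 6) in MASC and 3.59 ± 2.76 FPKM (SD, n = 4) in SSC lines, a ratio of means of 32.9. On the log2(FPKM + 1) scale, used for all differences below, MASC minus SSC was 4.92. This difference was 4.40 among Oct4-GFP lines and 4.61 among 129mix lines, and 4.22 without SSC lines 1 and 3 and MASC line 1, the libraries richest in fibroblast RNA. SSC and HSC samples overlapped in Cdh1, the MEF value lay between both HSC values, and the 2 SSC lines with the least Cdh1 were those with the most fibroblast RNA. The part of fibroblast RNA in the spread of the SSC lines was not tested.

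Cdh2 did not follow Cdh1. The SSC lines had 3.15, 4.73, 7.56 and 2.68 FPKM. MASC lines ranged from 2.62 to 11.4 FPKM with a median of 3.89, and both Gt(ROSA26)Sor-lacZ lines (10.7 and 11.4 FPKM) were above the other 4, which reached at most 4.15. ESC lines had 1.93 and 1.75 FPKM, iPS lines 0.638 and 1.47 FPKM, HSC cultures 0.0688 and 1.79 FPKM and MEFs 21.9 FPKM. SSC and MASC lines overlapped, with a MASC minus SSC difference of 0.24, while every SSC and every MASC line was above every ESC and iPS line. The fibroblast-rich MASC line 1 had 3.48 FPKM of Cdh2, within the range of the other MASC lines. The ratio of Cdh1 to Cdh2 FPKM had a median of 1.12 in SSC lines (range 0.0849 to 1.60) and of 30.6 in MASC lines (range 10.2 to 44.6). It was 54.5 and 59.3 in ESC lines, 89.4 and 160 in iPS lines, and 0.0508 in MEFs. No SSC line reached the lowest ratio of any MASC line, and no MASC line reached that of an ESC line.

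Epcam had the highest mean level of the members in SSC lines. EpCAM is a homophilic adhesion molecule that also binds claudins. Its transcript NM_008532 lies on chromosome 17, 88035319 to 88050467 (mm9, plus strand). SSC lines had 48.3, 140, 37.3 and 57.9 FPKM, MASC lines 95.4 to 163 with a median of 133, ESC lines 130 and 135, and iPS lines 188 and 162. HSC cultures had 0.197 and 0.117 FPKM and MEFs 0.0431. The SSC and MASC ranges overlapped because of SSC line 2, which was above 3 of the 6 MASC lines. That line had the least fibroblast RNA of the SSC lines (46.0 summed FPKM), and the order of the 4 SSC lines in Epcam was the reverse of their order in fibroblast RNA. The mean was 70.9 ± 47.0 FPKM (SD, n = 4) in SSC and 132 ± 25.0 FPKM (SD, n = 6) in MASC lines. The MASC minus SSC difference of 1.05 went down to 0.60 without SSC lines 1 and 3 and MASC line 1. The part of fibroblast RNA in these Epcam levels was not tested.

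Claudins form the paired strands that seal the space between cells, and different claudins give strands of different permeability. The 4 members had 2 patterns. Cldn4 was at 0.523, 2.03, 1.51 and 0.795 FPKM in SSC lines and at 73.9 to 209 FPKM (median 99.3) in MASC lines. ESC lines had 160 and 74.3 FPKM and iPS lines 119 and 182 FPKM. HSC cultures had 0.152 and 0.0837 FPKM and MEFs 0.0625. SSC and MASC lines were separated by more than an order of magnitude, with means of 1.21 ± 0.685 FPKM (SD, n = 4) and 117 ± 47.7 FPKM (SD, n = 6), a ratio of 96.0. Its difference of 5.70 was the largest of the members and was 6.06 and 5.97 within the Oct4-GFP and 129mix lines.

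Cldn6, a claudin of embryonic epithelia, was at 1.07, 8.16, 0.478 and 4.31 FPKM in SSC lines and at 43.0 to 104 FPKM (median 68.3) in MASC lines. ESC lines had 32.2 and 41.9 FPKM, iPS lines 68.4 and 121 FPKM, and HSC cultures 0.0468 and 0.0295 FPKM, and it was listed at 0 in MEFs. All 6 MASC lines were above both ESC lines. Cldn7, found along the whole lateral membrane of many epithelia, was at 0.113, 0.384, 0.0813 and 0.853 FPKM in SSC lines and at 14.0 to 29.3 FPKM (median 26.2) in MASC lines. ESC lines had 17.8 and 11.7 FPKM, iPS lines 21.8 and 31.3 FPKM, and HSC cultures 0.0960 and 0.139 FPKM. The SSC and MASC lines did not overlap for either gene, both of which were chosen for their rise. The differences were 4.28 for Cldn6 and 4.22 for Cldn7. Another Cldn7 transcript, NM_001193619, begins upstream of NM_016887 at position 69778281 of chromosome 11 (against 69778923, mm9). NM_016887 held 61.8% to 96.0% of the summed Cldn7 FPKM in MASC lines and 63.0% and 65.1% in iPS lines. The estimate of either transcript depends on how Cufflinks divided the reads they share.

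Cldn3 behaved differently from its neighbour Cldn4. Both genes lie on chromosome 5 and are 39.28 kb apart, Cldn4 at 135420993 to 135422804 (minus strand) and Cldn3 at 135462084 to 135463346 (plus strand, mm9). Cldn3 was at 4.74, 1.38, 6.82 and 5.48 FPKM in SSC lines and at 3.47 to 28.4 FPKM (median 4.88) in MASC lines. ESC lines had 10.9 and 2.29 FPKM, iPS lines 12.8 and 22.7 FPKM, HSC cultures 0.0576 and 0.127 FPKM and MEFs 0.0567. SSC and MASC lines overlapped, and the 28.4 FPKM of MASC line 2 stood apart from the other MASC lines, of which the next was at 5.90. Their difference was 0.50 over all lines, 1.95 within Oct4-GFP lines and -0.32 within 129mix lines.

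The share of each claudin in their summed level is given as a description, since the sum holds Cldn6 and Cldn7, which were chosen by their rise. The summed FPKM of Cldn3, Cldn4, Cldn6 and Cldn7 was 6.45 to 12.0 in SSC lines and 159 to 370 in MASC lines. Cldn3 made up a median of 60.7% of this sum in SSC lines (range 11.6% to 76.7%) and 2.56% in MASC lines (range 1.81% to 7.70%). Cldn4 made up 43.7% to 60.5% in MASC, 57.1% and 72.4% in ESC and 51.1% and 53.5% in iPS lines. The SSC lines were not alike: Cldn3 held 73.5% and 76.7% of the sum in lines 1 and 3 and 47.9% in line 4, where Cldn6 held 37.7%, while in line 2 Cldn6 held 68.3%.

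**Figure D1:**
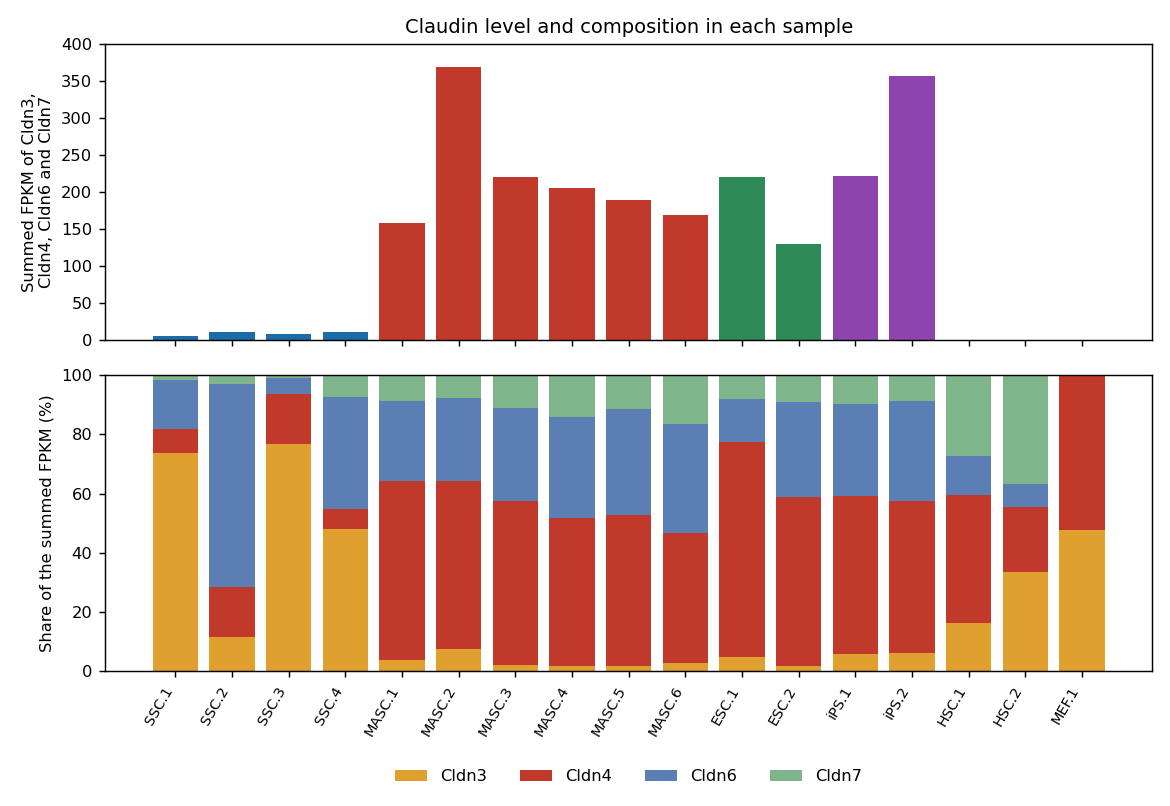
Summed FPKM of the 4 claudins (upper bars, coloured by group) and the share of each claudin in that sum in percent (lower stacked bars), for each of the 17 samples. The SSC bars do not exceed 12.0 FPKM and have Cldn3 as their largest share except in SSC line 2, while Cldn4 and Cldn6 fill most of every MASC, ESC and iPS bar.

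Sequences upstream of the transcript starts are shown for the 3 claudins that were high in MASC lines, for Cldn3, which was not, and for Ocln, which had the opposite pattern, so that their promoters can be compared. Each is the 250 bases before the RefSeq start in the GRCm38.p6 build, written 5′ to 3′ on the strand of the gene. Capitals mark the E-box CACCTG or its reverse complement CAGGTG, the hexamer bound by the Snai and Zeb repressors.
Cldn4 (chr5:134946935-134947184, minus strand): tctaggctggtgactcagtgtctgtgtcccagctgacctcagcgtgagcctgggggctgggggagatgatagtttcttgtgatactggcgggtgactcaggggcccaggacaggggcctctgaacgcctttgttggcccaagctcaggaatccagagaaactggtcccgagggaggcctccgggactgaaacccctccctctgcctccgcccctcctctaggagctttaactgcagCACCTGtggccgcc
Cldn6 (chr17:23679115-23679364, plus strand): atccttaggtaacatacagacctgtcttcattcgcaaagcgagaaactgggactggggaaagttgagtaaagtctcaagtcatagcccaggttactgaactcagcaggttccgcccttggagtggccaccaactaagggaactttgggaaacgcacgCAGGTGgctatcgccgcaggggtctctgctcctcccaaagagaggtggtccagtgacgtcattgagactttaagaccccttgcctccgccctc
Cldn7 (chr11:69965171-69965420, plus strand): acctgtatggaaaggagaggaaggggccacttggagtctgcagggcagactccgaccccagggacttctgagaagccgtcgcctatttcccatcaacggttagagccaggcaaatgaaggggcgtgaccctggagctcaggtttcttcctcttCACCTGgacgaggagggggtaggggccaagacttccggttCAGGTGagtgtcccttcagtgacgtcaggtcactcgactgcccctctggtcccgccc
Cldn3 (chr5:134985964-134986213, plus strand): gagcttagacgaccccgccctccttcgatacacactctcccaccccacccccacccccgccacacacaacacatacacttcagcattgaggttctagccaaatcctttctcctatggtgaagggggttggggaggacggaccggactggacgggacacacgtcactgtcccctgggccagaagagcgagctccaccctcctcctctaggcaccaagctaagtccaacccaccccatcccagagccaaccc
Ocln (chr13:100552499-100552748, minus strand): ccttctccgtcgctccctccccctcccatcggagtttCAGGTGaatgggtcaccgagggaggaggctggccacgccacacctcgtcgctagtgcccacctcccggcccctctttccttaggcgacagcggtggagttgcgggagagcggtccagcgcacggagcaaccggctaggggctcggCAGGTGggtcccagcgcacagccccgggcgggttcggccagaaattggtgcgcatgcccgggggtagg

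The RefSeq table held a promoter for 7 of the 9 members, and the windows used start exactly where the transcripts of the files do. An E-box was found in 5 of the 7 windows: Cldn4 and Cldn6 had 1 each, and Cldn7, Epcam and Ocln had 2 each. Cldn3 and Tjp1 had none. The hexamer was found in 17.2% of the 32851 promoter windows of the same length. The GC box GGGCGG, searched on both strands, was present in all 7 windows against 32.7% of all promoters, and AACNGGTT, a form of the grainyhead-like motif, in 0 of 7 against 1.79% of all. The match in Cldn4 began 14 bases before the start and that in Cldn6 at 93 bases before it. In the windows used, the E-box was present in Cldn4, Cldn6 and Cldn7, which were higher in MASC lines, and in Ocln, which was lower. Cldn7 and Ocln each had a further RefSeq start upstream of the one used, and the windows before these starts held 0 E-boxes. In the windows used, Ocln and Tjp1 had the most CpG dinucleotides, 22 in each. Cldn4 had 7, Cldn3 and Cldn6 had 9 each and Cldn7 had 10, against a median of 6 over all promoters. These matches are descriptions of letters and not evidence of binding.

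Ocln was lower in MASC than in SSC lines. Occludin is a 4-pass membrane protein of tight junctions that regulates rather than forms their strands. Its transcript NM_008756 lies on chromosome 13, 101267322 to 101322453 (mm9, minus strand). SSC lines had 17.1, 10.5, 14.5 and 42.7 FPKM, and MASC lines 2.03 to 4.46 FPKM with a median of 3.39. ESC lines had 2.80 and 2.57 FPKM and iPS lines 2.70 and 3.46 FPKM. It was listed at 0 in an HSC culture, with 0.0193 FPKM in the other and 0.0205 in MEFs. Every SSC line was above every other sample, and MASC, ESC and iPS lines overlapped. Mean Ocln was 21.2 ± 14.6 FPKM (SD, n = 4) in SSC and 3.28 ± 0.936 FPKM (SD, n = 6) in MASC lines, 6.47 times higher in SSC lines. The MASC minus SSC difference was -2.21, -1.93 among Oct4-GFP lines, -3.07 among 129mix lines and -2.33 without the 3 fibroblast-rich lines. Markers of Sertoli cells, the somatic cells with testicular tight junctions, summed to 24.4 to 31.1 FPKM in SSC lines and 25.2 to 86.9 FPKM in MASC lines (9 of 10 listed markers measured, 3 or 4 of them at an FPKM of at least 1 in each SSC line). Wt1 was higher in SSC lines (8.17 to 20.9 FPKM) than in MASC lines (0.797 to 4.41 FPKM). Clu was lower in SSC lines (0.221 to 4.84 against 19.0 to 74.8 FPKM). Sox9 was at 1.75 to 12.4 FPKM in SSC and 0.399 to 3.24 FPKM in MASC lines. Gata4 was at 0.383 to 5.95 and 0.560 to 10.7 FPKM, and Amhr2 at 0.263 to 1.40 and 1.19 to 2.14 FPKM. In SSC lines Amh was at most 0.817 FPKM, Cldn11 at most 0.614 and Dhh at most 0.400. Fshr was listed at 0 in all 4 SSC lines. The part of such cells in the Ocln levels was not tested.

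Tjp1 was present in all 17 samples. SSC lines had 32.7, 48.5, 30.7 and 41.5 FPKM and MASC lines 16.1 to 25.3 FPKM with a median of 20.8. ESC lines had 21.6 and 21.1 FPKM, iPS lines 23.5 and 33.1 FPKM, HSC cultures 4.41 and 3.96 FPKM and MEFs 9.40 FPKM. The SSC lines were above all MASC and ESC lines, and the higher iPS line fell within the SSC range. Its MASC minus SSC difference was -0.87, less than a 2-fold change, and reached -1.05 without SSC lines 1 and 3 and MASC line 1. The main transcript, NM_001163574 on chromosome 7 from 72441051 to 72516130 (mm9), held 85.4% to 95.6% of the summed Tjp1 FPKM in SSC and MASC lines. Summed over both transcripts, Tjp1 was at 33.7 to 50.8 FPKM in SSC and 18.4 to 26.9 FPKM in MASC lines, again without overlap.

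**Figure D2:**
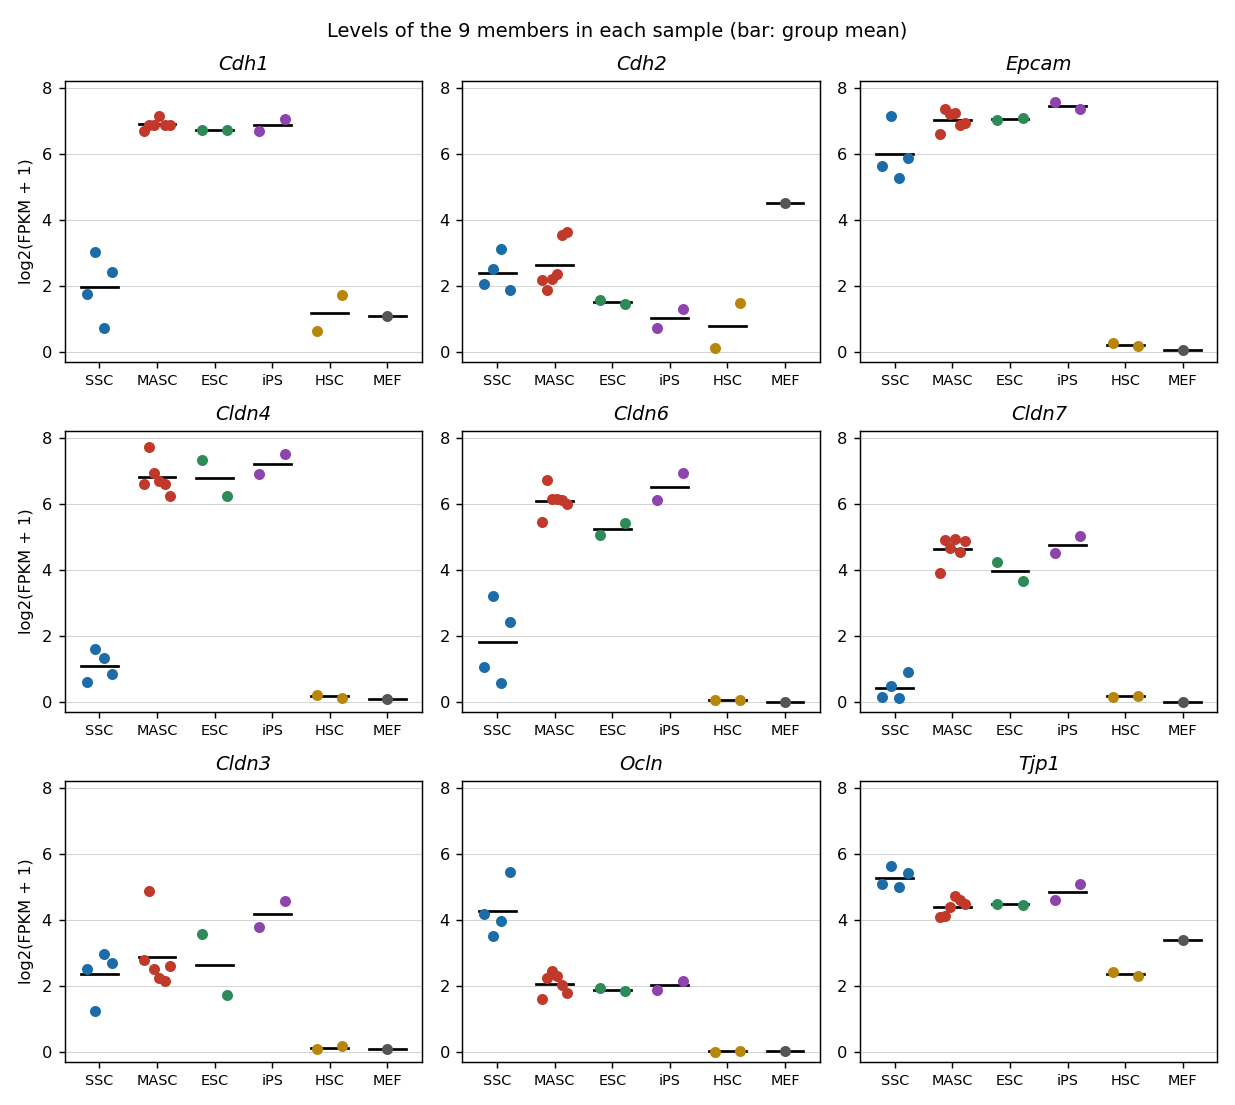
Level of each member as log2(FPKM + 1), with points for the samples and a bar for the group mean, in 4 SSC, 6 MASC, 2 ESC, 2 iPS and 2 HSC samples and 1 MEF sample. Cdh1, Cldn4, Cldn6 and Cldn7 are high in MASC, ESC and iPS lines and low in SSC lines, Epcam is high in all of these, and Ocln and Tjp1 are highest in SSC lines.

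The MASC and SSC lines did not overlap for 6 of the 9 members. With a difference of at least 1 as well, 4 were higher in MASC lines (Cdh1, Cldn4, Cldn6 and Cldn7) and 1 was lower (Ocln). Over all 32661 transcripts, 5.46% met this description as higher and 8.46% as lower. Nothing is read from this comparison. Cldn6 and Cldn7 were chosen on the same contrast, and the set of members was chosen with earlier results of these data known. The order of the groups was the same for Cldn3, Cldn4, Cldn6 and Cldn7 by mean log2(FPKM + 1): iPS, MASC, ESC, SSC, HSC, MEF. For Cldn3, though, iPS overlapped with MASC, MASC with ESC and ESC with SSC lines, and SSC lines did not overlap with HSC cultures. Of the 45 pairs of neighbouring groups over the 9 orders, 21 overlapped.

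Members were then tested in comparisons other than MASC against SSC, using limma with Benjamini-Hochberg adjustment over all 32661 transcripts. The set of members was chosen with earlier results of these data known, so these tests are not independent of that choice. A call needed an adjusted p below 0.05 and a log2 difference of at least 1. Cldn6 and Cldn7 were left as descriptions wherever SSC or MASC lines entered. The first comparison set SSC lines against the mean of the ESC and iPS groups, which asks how far the germline stem cells lay from established pluripotent lines. Of 7 members tested, 3 were lower in SSC lines, against 5.90% of all transcripts, and 1 was higher, against 10.1%. The share over all transcripts includes those far below an FPKM of 1, which can hardly reach a difference of 1 with the pseudocount of 1. Here and in the comparisons below, members and all transcripts were therefore not compared at equal levels. Cldn4 was lower by a difference of -5.90 (SE 0.34, limma adjusted p = 2.59e-07) and Cdh1 by -4.83 (SE 0.40, limma adjusted p = 4.10e-06). Epcam was lower by -1.28 (SE 0.32, limma adjusted p = 0.0103), and its call was lost with quantile normalization (-1.04, adjusted p = 0.0726), in a fit of these groups alone (adjusted p = 0.0919), and without SSC lines 1 and 3, MASC line 1 and ESC line 1 (-0.76, adjusted p = 0.161). Ocln was higher in SSC lines by 2.32 (SE 0.34, limma adjusted p = 0.000266). Cdh2 differed by 1.13 (SE 0.46, limma adjusted p = 0.0887), Cldn3 by -1.05 (SE 0.62, limma adjusted p = 0.246) and Tjp1 by 0.61 (SE 0.18, limma adjusted p = 0.0209), and none of the 3 was called, Tjp1 for its size. The differences of Cldn6 and Cldn7 were -4.08 and -3.95. Quantile normalization moved the median difference of transcripts with a mean FPKM of at least 1 from 0.17 to 0.01, and the split of calls over all transcripts from 3307 higher and 1928 lower to 2438 and 2417.

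Against the same ESC and iPS mean, no member was called in MASC lines: 0 of 7 tested, where 0.0153% of all transcripts were called higher and 0.0398% lower. At an unadjusted p below 0.05 there was 1, Cdh2, higher by 1.37 (SE 0.42, limma adjusted p = 0.280). The remaining 6 differences lay between -0.55 (Cldn3, SE 0.57) and 0.11 (Ocln, SE 0.31), and Cdh1 differed by 0.09 (SE 0.36). Those of Cldn6 and Cldn7 were 0.21 and 0.27. The comparisons of SSC and of MASC lines with ESC and iPS lines share the latter 4 samples. iPS minus ESC likewise called 0 of 9 members, against 0.0551% of transcripts higher and 0.0612% lower. With 2 lines in each group the standard errors were 0.25 to 0.88. None of the alternative settings called a member in either comparison. The largest differences were Cldn3 at 1.53 (SE 0.88, limma adjusted p = 0.802), Cldn6 at 1.28 (SE 0.70, limma adjusted p = 0.764) and Cldn7 at 0.81 (SE 0.35, limma adjusted p = 0.580). Cldn7 was the 1 member with an unadjusted p below 0.05, and all 4 claudin differences were above 0, although the Cldn4 values of the ESC and iPS lines overlapped.

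ESC and iPS lines were also compared with HSC cultures, which are not epithelial. Of 9 members, 8 were higher in the pluripotent lines, against 11% of all transcripts, and 0 were lower, against 10.2%. The 8 include Cldn6 and Cldn7, which were chosen for their rise from SSC to MASC lines. Members and all transcripts were again not compared at equal levels. The differences were 7.05 for Epcam (SE 0.40, limma adjusted p = 8.04e-08), 6.84 for Cldn4 (SE 0.42, limma adjusted p = 1.66e-07), 5.83 for Cldn6 (SE 0.60, limma adjusted p = 1.70e-05) and 5.62 for Cdh1 (SE 0.49, limma adjusted p = 3.85e-06). Cldn7, Cldn3, Tjp1 and Ocln differed by 4.20, 3.29, 2.29 and 1.94. These sizes depend on the pseudocount of 1, since HSC levels of the claudins, Epcam and Ocln were at most 0.197 FPKM. Cdh2 was the member not called, at 0.47 (SE 0.56, limma adjusted p = 0.640). The smaller of its HSC values was 0.0688 FPKM and the larger, 1.79 FPKM, came from the culture with the higher fibroblast sum, in which Col1a2 was at 143 FPKM against 0.340 in the other. Setting iPS lines against the MEF sample, for which no test was possible, 8 members were higher by at least 1, against 14.8% of all transcripts, and Cdh2 was lower by that amount, against 12.6%. The Cdh2 difference was -3.51, and those of Epcam, Cldn4 and Cdh1 were 7.39, 7.12 and 5.79.

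**Figure D3:**
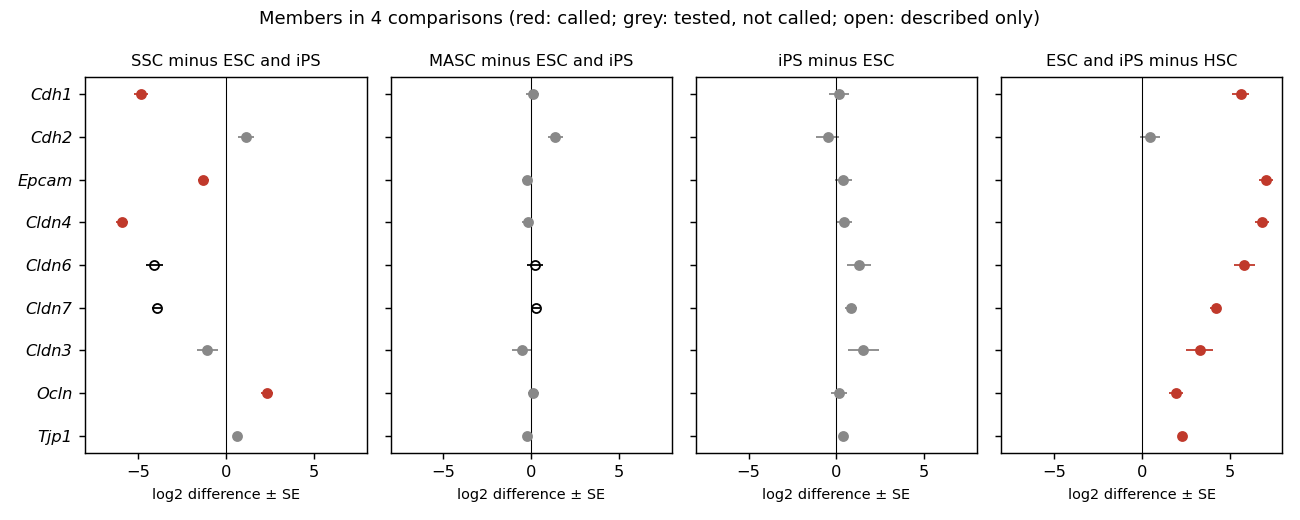
Differences of log2(FPKM + 1) with their standard errors for the 9 members in 4 comparisons, from limma fits of all 17 samples, with filled red points for called members and open points for those described only. Cdh1, Epcam and Cldn4 lie to the left and Ocln to the right for SSC lines, all members lie near 0 for MASC lines apart from Cdh2 at 1.37, and 8 of 9 are called on the right against HSC cultures.

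A wider list of 88 junction genes in 9 groups was tested in MASC against SSC lines, with 2 ESC lines in the same fit. For each group the up to 3 called genes with the largest differences are named, and the other genes named (Ctnnb1, Cdh4, Marveld2, Jam3, Cgnl1, Mpp5, Cldn12, Krt19, Spint1, Spint2, Grhl3, Ovol1, Tcf4 and Snai1) were picked after their values were seen. Of these, 26 were higher in MASC lines and 6 lower, while 6.04% of all transcripts were called higher and 9.60% lower. As shares of the list this is 29.5% and 6.82%. Of the 88 listed genes, 64 reached a mean FPKM of 1 in SSC or MASC lines. Of all 32661 transcripts, 13532 to 16272 reached an FPKM of 1 in the different samples. With the pseudocount of 1, transcripts far below that level can hardly reach a difference of 1. The shares of the list and of all transcripts were therefore not compared at equal levels. The median difference of the list was 0.06, against -0.0048 over all transcripts. Quantile normalization moved the median of transcripts with a mean FPKM of at least 1 from -0.10 to 0.01 and the calls over all transcripts from 1972 higher and 3137 lower to 2335 and 2435, and it gave 31 higher and 5 lower in the list. Without SSC lines 1 and 3 and MASC line 1, which left 2 SSC and 5 MASC lines, the list had 22 higher and 9 lower. The share over all transcripts is not given for this setting, so nothing about junction genes is read from the change. A call can be lost in this setting through the smaller number of lines alone.

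At the adherens junction, 4 of 10 catenins and nectins were higher in MASC lines and 0 lower. Pvrl2 (nectin-2) differed by 2.59 (SE 0.20, limma adjusted p = 1.34e-05), with means of 5.81 ± 1.69 FPKM (SD, n = 4) in SSC and 40.1 ± 9.34 FPKM (SD, n = 6) in MASC lines. Jup (plakoglobin), which joins cadherins of both adherens junctions and desmosomes to the cytoskeleton, differed by 2.04, and Ctnna1 (alpha-catenin) by 1.72, from 57.9 to 195 FPKM. Ctnnb1 (beta-catenin) did not pass the test, with 139 and 113 FPKM. Of 8 other cadherins 1 was called, Cdh3 (P-cadherin), at 1.30 (SE 0.27, limma adjusted p = 0.00537). SSC line 2 had 6.04 FPKM of Cdh3 and the other SSC lines about 2, MEFs had 50.0 FPKM, and the call was lost without the 3 fibroblast-rich lines (0.87, limma adjusted p = 0.0954). Cdh4 had 4.47 and 1.78 FPKM in SSC and MASC lines and was called, as lower in MASC lines, after those lines were left out.

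At the tight junction, 5 of 17 genes were higher and 4 lower in MASC lines, so both directions seen among Cldn4, Ocln and Tjp1 were present in the list. Jam2, an adhesion molecule of the immunoglobulin superfamily, was higher by 3.63 (SE 0.36, limma adjusted p = 5.50e-05), and Crb3, an apical polarity protein, by 2.71 (SE 0.25, limma adjusted p = 3.87e-05). Among the genes that were lower was Marveld2 (tricellulin, a relative of occludin), which like Ocln was highest in SSC line 4. It had 11.4, 12.7, 8.63 and 31.8 FPKM in SSC lines and differed by -1.98 (SE 0.36, limma adjusted p = 0.00217). Jam3, Cgnl1 and Mpp5 were the other 3 lower genes, at -1.73, -1.62 and -1.33. Of 18 other claudins only Cldn9 was called, higher by 1.27 (SE 0.22, limma adjusted p = 0.00190) but at a mean of 1.62 FPKM in MASC lines. Cldn9 begins 137 bases after the end of Cldn6. Only 2 of the 18, Cldn9 and Cldn12, reached a mean of 1 FPKM in SSC or MASC lines.

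Desmosomes anchor keratin filaments, and 6 of 10 of their genes were higher in MASC lines with 0 lower. Perp, Pkp3 and Dsg2 led with 3.86, 3.07 and 2.44. Dsg2, the desmoglein of simple epithelia, was at 7.01 ± 0.523 FPKM (SD, n = 6) in MASC and 0.658 ± 1.01 FPKM (SD, n = 4) in SSC lines. Without the fibroblast-rich lines, with 2 SSC lines left, 4 of the 6 were called. All 4 simple epithelial keratins were higher. Krt8 had the largest difference of the list, 6.33 (SE 0.44, limma adjusted p = 7.11e-06), with 0.601, 3.37, 0.348 and 0.0442 FPKM in SSC lines and 157 ± 90.7 FPKM (SD, n = 6) in MASC lines. MASC line 2, the line with the most Cldn3, also had the most Krt8 of the MASC lines (339 FPKM). Its partner Krt18 differed by 4.43 and Krt7 by 2.39, and without the fibroblast-rich lines Krt7 and Krt19 were not called (Krt7 at 2.55, limma adjusted p = 0.0535). Krt8 was uneven among iPS lines, at 39.1 and 487 FPKM.

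Of 6 EpCAM partners and membrane proteases, 3 were higher. St14 (matriptase, a protease that cleaves EpCAM) differed by 3.35 (SE 0.30, limma adjusted p = 3.37e-05) and Prss8 (prostasin) by 2.03. The matriptase inhibitors Spint1 and Spint2 did not pass the test, at 40.5 and 155 FPKM in SSC lines and 33.0 and 125 FPKM in MASC lines.

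Among the transcription factors that activate epithelial genes, 2 of 8 were higher in MASC lines and 0 lower. Without the 3 fibroblast-rich lines 2 were higher and 2 lower, the latter Grhl3 (-1.59, limma adjusted p = 0.0210) and Ovol1 (-1.15, limma adjusted p = 0.0429). Elf3 differed by 3.02 (SE 0.19, limma adjusted p = 3.43e-06), with 0.205 ± 0.129 FPKM (SD, n = 4) in SSC and 8.85 ± 1.74 FPKM (SD, n = 6) in MASC lines. Grhl2 differed by 2.69 (SE 0.57, limma adjusted p = 0.00568), and its call was lost with strain as a block (2.10, limma adjusted p = 0.0514). Its paralogue Grhl3 was not called with all lines, and was at 9.11, 17.6, 6.04 and 43.9 FPKM in SSC lines, highest in SSC line 4 as Ocln was. Of 7 repressors of Cdh1, 0 were higher and 2 lower, against 1 higher and 1 lower with quantile normalization and 1 higher and 2 lower without the 3 fibroblast-rich lines. The higher gene in both was Tcf4, at 0.92 with all lines (limma adjusted p = 0.0309, below the size threshold), 1.16 with quantile normalization and 1.37 without those lines. Twist1 was lower by 2.22 on the log2 scale, at 17.2 ± 3.46 FPKM (SD, n = 4) in SSC and 3.27 ± 2.35 FPKM (SD, n = 6) in MASC lines (limma adjusted p = 0.000741). MASC line 1, which had the most fibroblast RNA, also had the most Twist1 of the MASC lines (7.67 FPKM), and MEFs had 50.7 FPKM. In SSC lines 1 to 4 Twist1 was at 12.3, 18.8, 17.6 and 20.2 FPKM, with fibroblast sums of 481, 46.0, 1037 and 158. The part of fibroblast RNA in the Twist1 levels was not tested. Zeb1 differed by -1.21 (SE 0.30, limma adjusted p = 0.0117) and did not reach the size threshold with quantile normalization (-0.94). Snai1 had 26.2, 15.5, 23.3 and 18.8 FPKM in SSC lines and 1.98 to 32.3 FPKM in MASC lines, and was not called (-1.63, limma adjusted p = 0.0960).

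**Figure D4:**
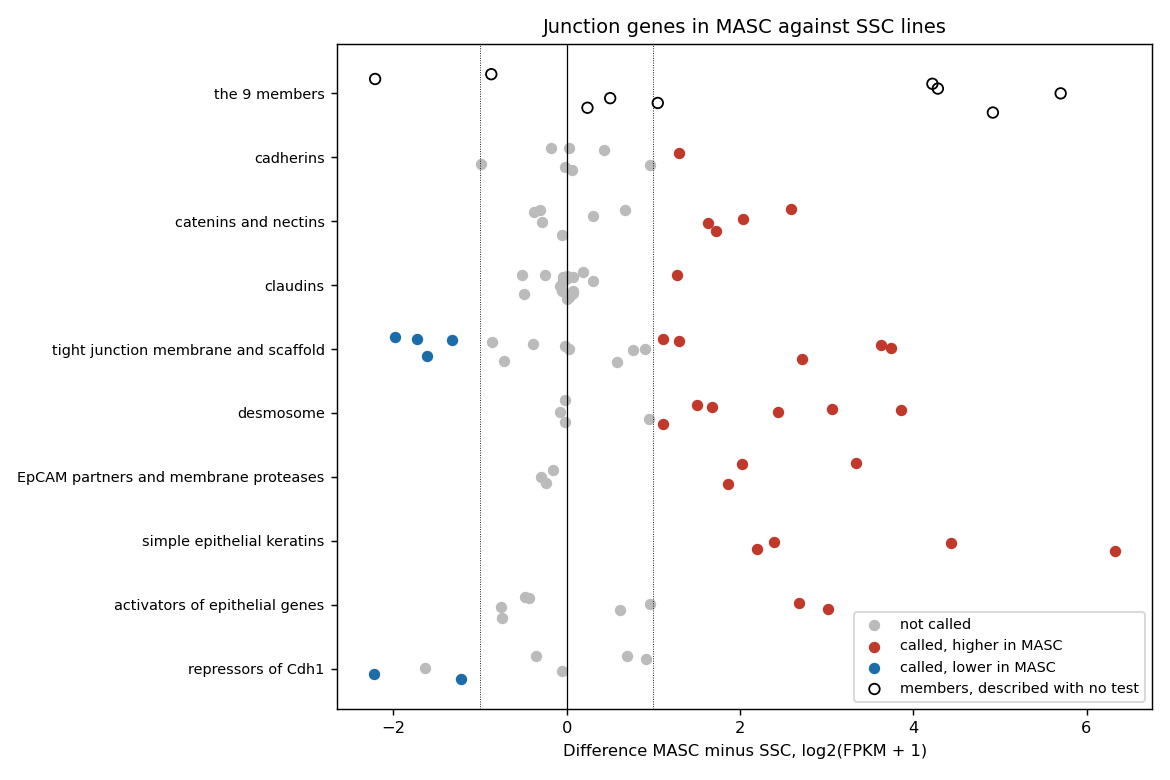
MASC minus SSC difference of log2(FPKM + 1) for the 88 listed junction genes by group, coloured by the limma call, and for the 9 members as open circles with no test. Desmosome and keratin genes extend to the right, up to 6.33 for Krt8, the tight junction genes extend both ways, and the claudins other than the members cluster near 0.

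The levels of all 17 samples were used to find, for each member, the transcripts whose log2(FPKM + 1) was most alike by Pearson's r, among the 20119 transcripts that reached 1 FPKM in 2 or more samples. These correlations are descriptions, since the points are 6 groups of samples that share libraries and culture conditions. For Cdh1 they were Amt (r = 0.986), Sox2 (r = 0.986) and Hsd17b14 (r = 0.982), for Cldn4 Elf3 (r = 0.991), Nodal (r = 0.991) and Eras (r = 0.987), and for Cldn7 Lrrn4 (r = 0.986), Gng3 (r = 0.984) and Elf3 (r = 0.984). Cldn6 was most like Fem1b (r = 0.979), followed by Cdh1 itself (r = 0.979, n = 17 samples) and Lad1 (r = 0.977). Epcam was most like Nasp (r = 0.995), Bex4 (r = 0.990) and Slc35f2 (r = 0.984). Ocln had a different set, Sfmbt2 (r = 0.970), Nudt11 (r = 0.966) and the germ cell gene Dnd1 (r = 0.962). Tjp1 was most like Mphosph8 (r = 0.966), Wasl (r = 0.964) and Abi1 (r = 0.961). Cldn3 gave Cacng6 (r = 0.944), Alpl (r = 0.905) and Pttg1 (r = 0.891), and Cdh2 Cplx2 (r = 0.858), Nr2f1 (r = 0.854) and Ndn (r = 0.851).

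Between members, Cdh1, Cldn4, Cldn6 and Cldn7 had correlations of 0.965 to 0.983 with each other over the 17 samples. Ocln and Tjp1 had 0.851 with each other and -0.0448 and 0.296 with Cdh1. Epcam lay between both sets, at 0.763 with Cdh1, 0.565 with Ocln and 0.800 with Tjp1, and Cdh2 had correlations from -0.163 to 0.203 with all other members.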

How the data were processed

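RNA-seq was done on total RNA (TruSeq libraries). The authors aligned reads to mm9 with TopHat2 2.0.11, left out duplicate and multi-mapping reads, and estimated transcript levels with Cufflinks, with upper-quartile and GC normalization. The deposited FPKM values were used as the level, and the deposited coverage (reads per base) as a signal of depth. Read totals are not given in the sources used here, so no counting intervals are given.

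Samples were grouped by the labels. Of 33262 entries per file, 601 further loci of a transcript were left out and 32661 transcripts were kept. Values were analysed as log2(FPKM + 1) with limma 3.58.1 (R 4.3.3, lmFit and eBayes without trend) and Benjamini-Hochberg adjustment. MASC against SSC used SSC, MASC and ESC lines, and the other comparisons used all 17 samples in 6 groups. No filter on low values was applied. The scripts were tested on simulated data. Alternatives were a pseudocount of 0.1, a filter on low FPKM, quantile normalization, FPKM summed per gene symbol, eBayes with trend, a log2 threshold of 2, other sets of samples, and blocks for strain and replicate number. The p-values measure the spread between lines, and nothing says that lines of a strain came from separate animals. Members and gene lists were chosen with earlier results of these data known. Promoters were taken from RefSeq (GRCm38.p6), matched by symbol for 7 of 9 members. Some genes that the naming rule selects are not reported here.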

Additional observations from a re-analysis of the deposited data

Results flagged for a closer look

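Cldn3 in MASC line 2 had an FPKM of 28.4, and the gap to the next MASC line took up more of the range of the 6 lines than Dixon's 95% limit for a group of this size allows. It was the 1 such value among the 18 groups of 4 or 6 lines examined over the 9 members, and chance gives about 1 in 20. In the same library Cldn4 (209 FPKM), Cldn6 (104 FPKM) and Krt8 (339 FPKM) were also the highest of the MASC lines.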

How the results depend on the processing

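With a log2 threshold of 2, 16 junction genes were higher and 1 lower in MASC lines, and the share over all transcripts is not given for this threshold. With a filter on low FPKM, 2 members were higher in SSC than in ESC and iPS lines, since Cdh2 then had an adjusted p of 0.0466. Among the described differences, MASC lines were the lower ones for 2 members within Oct4-GFP lines and, in an alternative chosen after seeing the data, without SSC lines 1 and 3 and MASC line 1, since Tjp1 then passed a difference of 1. Without SSC line 2, Epcam also did not overlap between MASC and SSC lines, which made 5 members higher in place of 4. Leaving out 1 line at a time gave 24 to 27 junction genes higher and 6 to 8 lower, and left every member's call in the tested comparisons as it was.

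The signs that turned were all of differences that were not called. MASC minus ESC and iPS for Cldn4 was 0.081 with the replicate block, 0.11 without the 4 lines with the most fibroblast RNA, and -0.47 to 0.074 with 1 line left out, and that for Ocln was -0.13 with the replicate block. With 1 line left out, iPS minus ESC was -0.029 to 0.33 for Cdh1 and -0.12 to 0.98 for Cldn4, and ESC and iPS minus HSC was -0.22 to 1.16 for Cdh2. The causes were not tested.

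Replicate numbers are shared between groups, but nothing says that they pair lines, and the same-numbered SSC and MASC lines had correlations of their deviations from -0.225 to 0.185 (mean -0.031). With the replicate block, Epcam was not called in SSC against ESC and iPS lines (adjusted p = 0.0968), and of the named junction genes Cdh3, Krt7, Grhl2 and Zeb1 were not called.

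Of 208 recomputed counts of calls 203 stayed within 1.5 times the value given, or were equal. Many of these counts were small or 0. The change from 6 to 9 lower junction genes without the 3 fibroblast-rich lines fell within this limit, so the 203 are no measure of stability. Zeb1 and Grhl2 were also not called with strain as a block. With 1 MEF sample and 2 lines each of ESC, iPS and HSC, small differences between these groups cannot be resolved, and levels below an FPKM of about 1 depend on the pseudocount.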
